A study of Mus musculus with 8 samples.

Results

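CTCF and the cohesin machinery fold chromosomes into loops and topologically associating domains (TADs), and the 9 genes described here encode that machinery themselves: Ctcf, Rad21, Smc3, Stag1, Nipbl, Mau2, Wapl, Pds5a and Pds5b. They were chosen by function, out of 21627 protein-coding genes on chromosomes 1 to 19 and X, by a rule that used no measured value. Earlier results of these data were known when they were chosen. Loops with an anchor over the gene body widened by 5 kb on each side, TADs touching that interval and CTCF peaks inside it were collected for each gene. Hi-C lists came from ES cells of the v6.5 line with genotype WT, and from epithelium and fiber cells dissected from lenses of CD-1 mice at postnatal day 0.5. Each of these 3 lists was called by the authors on the merged map of 2 replicates, each lens replicate from 30 pooled lenses. CTCF ChIP-seq was available for the lens cells, with 1 list from 200 pooled lenses for the epithelium and 1 for the fiber cells. CTCF peaks of ES cells were not analysed here. Every list is thus the only one of its cell type, so that no replicate error can be had from them and the cell types were compared without a test. No expression values were used, and the labelled cell types were not checked against marker genes.

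Cohesin is a ring built from SMC subunits, a kleisin that closes it and a STAG subunit that docks on the kleisin. A loader places the ring on chromatin, where it extrudes DNA into a loop until it meets CTCF bound in the blocking orientation. WAPL opens the ring and releases it, and PDS5 proteins bind the kleisin and take part in both the release and the protection of cohesin. In lens, fiber cells leave the cell cycle and later lose their nuclei, while epithelial cells remain able to divide.

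The coordinates below are of build mm10 (GRCm38) and are counted from 1. Promoter windows of RefSeq (GRCm38.p6), from 250 bases before to 50 bases after an annotated start site, matched 7 of the 9 genes, and Rad21 and Nipbl had no entry. A window at Stag1 and a window at Pds5b were the ones under a CTCF peak, and they are printed for this reason, 5′ to 3′ on the plus strand. At Stag1 (chr9:100643198-100643497) capitals mark the 134 bases under the lens fiber peak.

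Stag1: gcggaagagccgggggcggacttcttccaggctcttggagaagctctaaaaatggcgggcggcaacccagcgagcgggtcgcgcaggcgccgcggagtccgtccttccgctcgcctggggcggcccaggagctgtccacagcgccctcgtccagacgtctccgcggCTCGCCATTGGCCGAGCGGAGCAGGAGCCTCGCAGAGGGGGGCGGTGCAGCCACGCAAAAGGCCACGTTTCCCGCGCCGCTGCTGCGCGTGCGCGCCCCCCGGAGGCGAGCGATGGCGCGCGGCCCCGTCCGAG

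At Pds5b (chr5:150673577-150673876) the lens fiber peak covered bases 1 to 241 of the window, and capitals mark a CTCF core sequence.

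Pds5b: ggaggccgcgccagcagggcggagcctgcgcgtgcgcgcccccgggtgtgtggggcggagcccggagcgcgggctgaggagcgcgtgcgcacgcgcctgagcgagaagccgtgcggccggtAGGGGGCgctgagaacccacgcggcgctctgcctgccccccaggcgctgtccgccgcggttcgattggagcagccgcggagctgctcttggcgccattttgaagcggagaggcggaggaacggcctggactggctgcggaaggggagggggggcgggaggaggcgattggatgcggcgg

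The core was searched for as AGGGGGC and as AGGTGGC, and also as AGAGGGC and as AGATGGC, on both strands. The match at Pds5b was AGGGGGC on the plus strand, at chr5:150673698-150673704. Its middle base was 57 bp from the lens fiber summit, and the match lay inside the peaks of both lens cell types. At least 1 of these strings was present in 27.7% of 32619 promoter windows, and in 55.8% of the 1456 windows under a lens fiber peak. The Stag1 window held none of them. Its fiber peak was among the stronger ones, but the summit lay just beyond the window, and the part of the peak outside the window was not searched. The other match among the members was AGAGGGC in the Smc3 window, shown with the match in capitals (chr19:53600146-53600445, plus strand).

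Smc3: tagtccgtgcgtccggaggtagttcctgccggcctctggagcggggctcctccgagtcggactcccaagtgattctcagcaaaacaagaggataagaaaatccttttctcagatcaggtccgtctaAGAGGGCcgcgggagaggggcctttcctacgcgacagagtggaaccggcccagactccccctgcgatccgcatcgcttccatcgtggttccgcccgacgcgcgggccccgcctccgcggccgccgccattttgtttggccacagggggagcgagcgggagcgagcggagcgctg

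This match lay 280 bp from the nearest lens fiber summit, outside the fiber peak upstream of Smc3.

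The members are long genes, with a median length of 75.6 kb (28.2 to 361 kb) against 17.3 kb over all protein-coding genes. A long gene has more room for anchors and peaks, so counts of genes with a feature are given beside counts per Mb. Loop anchors lay at 4 of 9 members in ES cells, 5 of 9 in epithelium and 5 of 9 in fiber cells. Over all protein-coding genes the shares were 37.3%, 36.2% and 34.5%. These members had 10 loops in ES cells, 9 in epithelium and 9 in fiber cells, and no loop joined 2 members. Per Mb of widened gene this was 9.24, 8.31 and 8.31 loops, against 11.1, 10.0 and 9.52 over all genes. The counts of members with a loop were thus near the background, and 2 of the 5 in epithelium, Smc3 and Mau2, had an anchor in the 5 kb margin alone. Per length, the members had fewer loops than all genes in each list. An anchor counts once at every gene it touches, however, which raises the figure per Mb of short genes. A lack of loops at the members can therefore not be read from it.

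**Figure D1:**
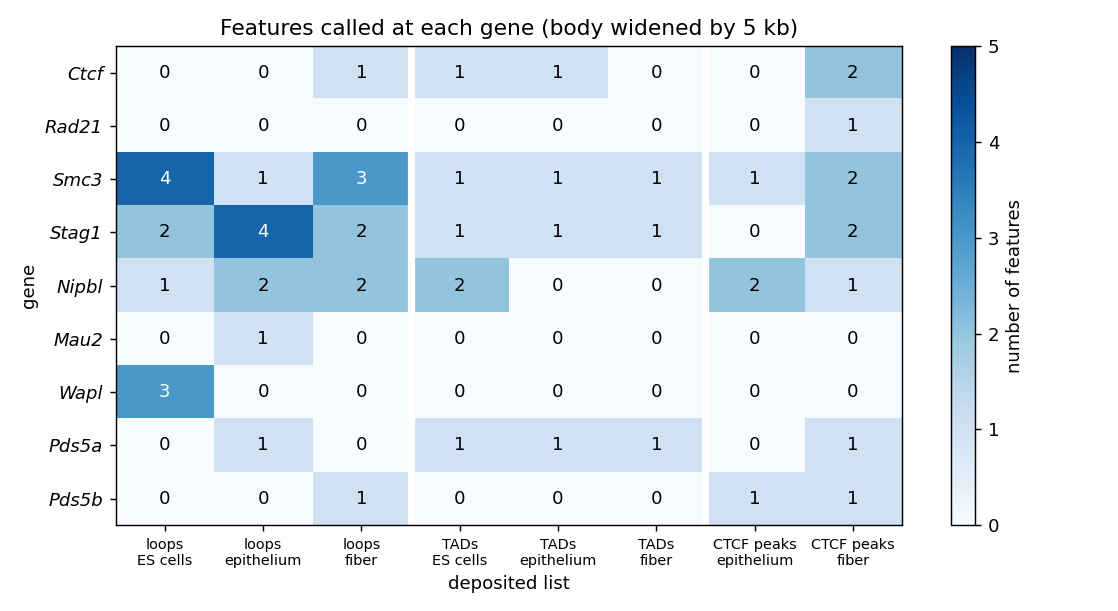
Number of loops, TADs and CTCF peaks (cell values and colour) called at each gene (rows) in each deposited list (columns), with the gene body widened by 5 kb. Smc3, Stag1 and Nipbl have loops in all 3 cell types, Wapl has loops in ES cells alone, and Rad21 has 1 fiber peak and no other feature.

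Loops were present in all 3 lists at Smc3, Stag1 and Nipbl (3 of 9, against 21.3% of all genes). A loop in a lens list but none in ES cells was found at Ctcf, Mau2, Pds5a and Pds5b (4 of 9, against 14.9%). Wapl had the reverse arrangement, with 3 loops in ES cells and none in lens. A loop in ES cells alone, with no lens CTCF peak, was the state of 1005 protein-coding genes (4.65%), Wapl included. The share with a loop in ES cells alone, with or without a peak, was not counted. At Mau2 the absence from ES cells rests on the 5 kb margin, since ES cells had a loop within 10 kb of the epithelium loop that missed the widened gene. Rad21 alone had no loop in any list, a state shared by 47.9% of all genes. The 5-list patterns of loops and CTCF peaks were rare for some members. Ctcf shared its pattern (fiber loop and fiber peak, nothing else) with 162 protein-coding genes in all, itself included, and Smc3 and Nipbl shared theirs (every list) with 2652.

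CTCF peaks differed in number between the lens cell types. In epithelium 4 peaks lay in 3 of 9 members (31.2% of all genes had one), and in fiber cells 10 peaks lay in 7 of 9 (45.9%). The fiber list was also longer, with 23868 peaks against 16433. Both lists had a peak at Smc3, Nipbl and Pds5b (3 of 9, against 28.2%). The fiber list alone had a peak at Ctcf, Rad21, Stag1 and Pds5a (4 of 9, against 17.7%). These 4 genes were the same when the fiber list was cut to its strongest 16433 peaks. The share over all genes was not counted for the cut list, so this result has no background beside it. With that cut, Nipbl lost its fiber peak and kept its epithelium peaks, and in the full lists no member had a peak in the epithelium list alone. Mau2 and Wapl had no peak in either (2 of 9, against 51.1%). Per Mb of widened gene, the members had 3.70 peaks in epithelium and 9.24 in fiber cells, below the 8.16 and 13.3 of all genes. A peak also counts once at every gene it touches, which raises the figure per Mb of short genes. A lack of peaks at the members can therefore not be read from it.

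**Figure D2:**
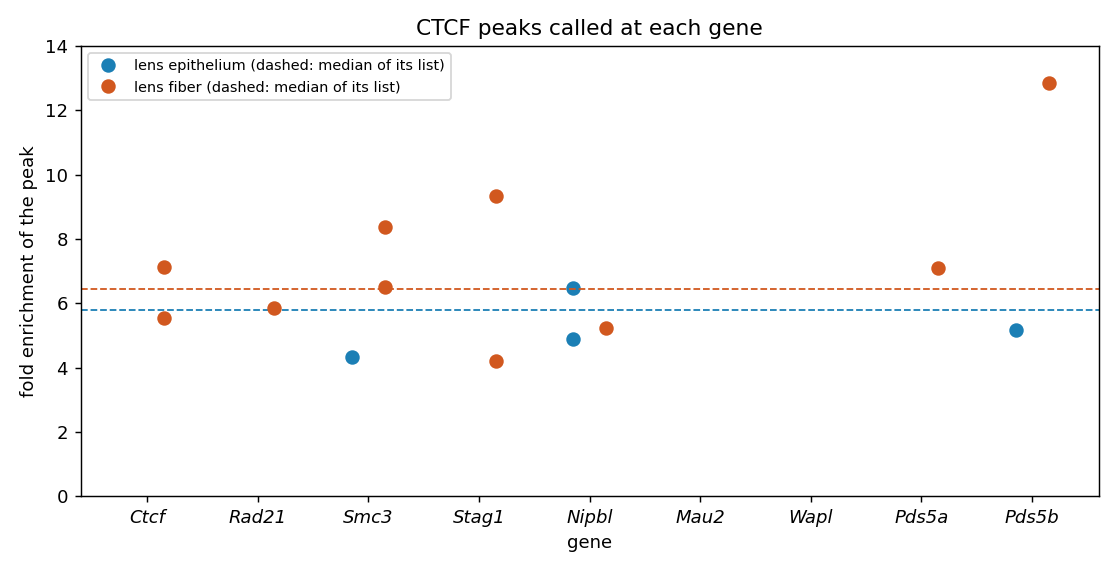
Fold enrichment over background (vertical axis, linear) of each CTCF peak called at a member in epithelium and fiber cells, with the median of each whole list as a dashed line. The Pds5b fiber peak at 12.8 is the highest point, and 1 of 4 epithelium peaks and 6 of 10 fiber peaks lie above the median of their own list.

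TADs touched 5 of 9 members in ES cells, 4 of 9 in epithelium and 3 of 9 in fiber cells. Over all genes these shares were 43.4%, 22.8% and 31.6%. Counted as TADs, there were 6 in ES cells, 4 in epithelium and 3 in fiber cells. Per Mb of widened gene this was 5.54, 3.70 and 2.77 TADs, and 8.41, 4.11 and 5.74 over all genes. A TAD counts once at every gene it touches, so this figure tends to be lower for long genes such as the members. A lack of TADs at the members can therefore not be read from it. Smc3, Stag1 and Pds5a had a TAD in every list, Ctcf had one in ES cells and epithelium, and Nipbl had TADs in ES cells alone. The Smc3 TADs covered only 1.83% of the gene in ES cells and fiber cells, and in epithelium the TAD reached the 5 kb margin alone.

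Ctcf (chr8:105636474-105682922) encodes the zinc finger protein that stops cohesin at its binding sites. Its only loop was in fiber cells and joined the regions at both ends of the gene, chr8:105630001-105640000 and chr8:105680001-105690000, over 50 kb. The loop had 70 observed contacts against 34.3 expected from its surroundings (the donut expectation of HiCCUPS). The ratio was 2.04, with a 95% Poisson interval of 1.59 to 2.58 that covers the counting error of the observed contacts only. It was thus a weak loop, since only 5.44% of fiber loops had a ratio as low or lower. Each anchor held a fiber CTCF peak and none of the epithelium list. The peak in the upstream anchor, chr8:105636689-105636907, had its summit 227 bp downstream of the start site and a fold enrichment of 7.13. The peak in the other anchor, chr8:105685744-105686034, had its summit 2977 bp beyond the end of the gene and a fold enrichment of 5.53. That summit lay within 2 kb of an end of the neighbouring gene Carmil2. In ES cells and epithelium, where no loop was called at Ctcf, the whole gene lay in a small TAD of 90 kb and of 80 kb, respectively. No TAD touched the gene in fiber cells, and the nearest one was 17.1 kb away.

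Rad21 (chr15:51962604-51993538) encodes the kleisin. No loop anchor and no TAD touched it in any cell type, and the nearest anchors were 42.6 kb away in ES cells and 37.6 kb away in both lens lists. It was nevertheless spanned by a loop of 245 kb with the same anchors in all 3 lists, chr15:51910001-51915000 and chr15:52155001-52160000. This loop had 39 contacts against 9.11 expected in ES cells (ratio 4.28, 3.04 to 5.85). Lens epithelium had 20 against 3.63 (5.5, 3.36 to 8.50), and fiber cells had 23 against 5.01 (4.59, 2.91 to 6.88). The 3 intervals overlap, and each ratio was above the median of its list. A fiber CTCF peak with a fold enrichment of 7.83 lay in the anchor of lower coordinate, and no peak of either lens list lay in the other anchor. Within the gene, the fiber list had 1 peak, chr15:51991785-51991995, with a fold enrichment of 5.85. Its summit was 1664 bp inside the gene end of higher coordinate, and within 2 kb of an end of the gene model Gm52217.

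**Figure D3:**
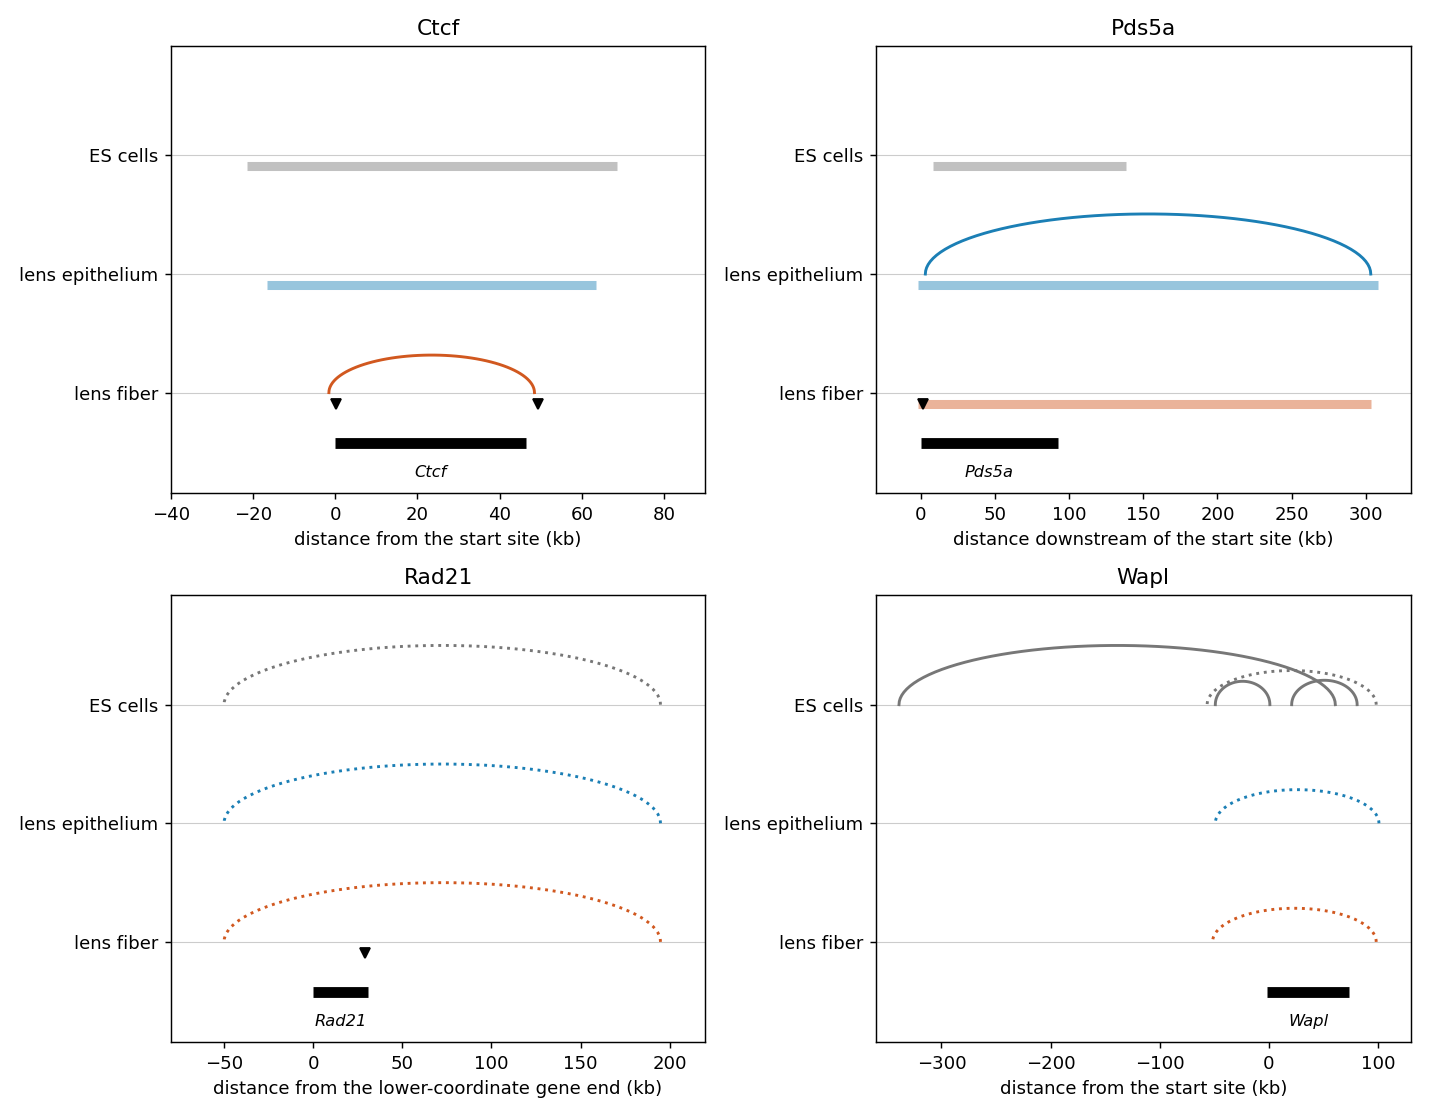
Loops (solid arcs, drawn between anchor midpoints), the smallest loop that spans the gene where one of at most 2 Mb exists (dotted arcs), TADs (thick bars) and CTCF summits (triangles) at Ctcf, Pds5a, Rad21 and Wapl, by distance in kb along the gene's surroundings. Each row is 1 cell type, the black bar is the gene, arc height has no unit, and ES cell rows have no CTCF data. Rad21 is spanned by the same 245 kb loop in each row, and the Ctcf loop joins 2 fiber peaks 49.1 kb apart.

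Smc3 (chr19:53600396-53645831) encodes an SMC subunit of the ring, and it had 4 loops in ES cells, 1 in epithelium and 3 in fiber cells. Smc3 and Stag1, with 8 loops each over the 3 lists, had more than any other member. ES cell loops ran in both directions and over very different lengths. A loop of 70 kb led from just beyond the gene into Rbm20, with a ratio of 2.26 (1.84 to 2.74). A loop of 250 kb joined the gene body to Smndc1 (ratio 2.92, 2.24 to 3.75), and the highest of its 4 FDR values was 0.0843. The other 2 ES cell loops were far longer, at 7125 kb to the region of Nanos1 and Eif3a and at 6500 kb to Pdcd11. The former had 20 contacts against 1.84 expected (10.9, 6.64 to 16.8), the highest ratio of all member loops (6.75 against the highest of the 4 expectations), and the latter 19 against 3.25 (5.84, 3.52 to 9.13). Loops above 3 Mb made up 3.72% of all loops in ES cells and 1.05% and 1.07% in epithelium and fiber cells, and no lens loop at a member was that long.

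The lens loops of Smc3 all led in the direction of higher coordinates. In fiber cells the anchor chr19:53625001-53650000 made 3 loops, of 275 kb to Pdcd4 and Gm30990, 1450 kb to Gpam and 1575 kb to Gucy2g. Their ratios were close together, at 2.25 (1.83 to 2.74), 2.37 (1.79 to 3.07) and 2.43 (1.84 to 3.14). The single epithelium loop, of 1400 kb, also ended in Gpam (2.52, 1.91 to 3.28). Its anchors matched those of the 1450 kb fiber loop within 25 kb but not within 10 kb, and its near anchor, chr19:53650001-53675000, lay 4.17 kb outside the gene. This anchor reached the widened gene only in its margin and also covered part of Rbm20.

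The end of Smc3 coincided with features of several lists. A CTCF peak lay 3.10 kb (epithelium) or 3.06 kb (fiber cells) beyond the end of the gene, at chr19:53648898-53649089 and chr19:53648785-53649046. Its fold enrichment was 4.34 in epithelium, weaker than most of that list, and 8.37 in fiber cells, higher than 76.2% of the fiber list. A TAD began beside this peak in each cell type, at 53645001 in ES cells (110 kb), 53650001 in epithelium (105 kb) and 53645001 in fiber cells (105 kb). The TAD edge was 1.07 kb from the epithelium summit and 3.90 kb from the fiber summit in the cell type concerned. The 3 fiber loops shared the anchor that holds the peak. A second fiber peak, chr19:53599889-53600122, had its summit 401 bp upstream of the start site and a fold enrichment of 6.50. It was absent from the epithelium list.

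Stag1 (chr9:100597709-100958544) encodes a STAG subunit, and it is the longest member, at 361 kb. The start site in the RefSeq promoter table lies 45.7 kb inside this gene body, at 100643448. Here the anchors of lens loops met. In fiber cells 2 loops left the anchor chr9:100640001-100650000 in opposite directions. A loop of 190 kb ran to the region of Il20rb (41 contacts against 13.4 expected, ratio 3.06, 2.20 to 4.16), and a loop of 510 kb ran to Ppp2r3a (35 against 10.4, 3.37, 2.35 to 4.69). Both were shared with epithelium within 10 kb, as loops of 185 kb (19 against 2.54, 7.47, 4.50 to 11.7) and 525 kb (56 against 22.8, 2.45, 1.85 to 3.18). Against the highest of the 4 expectations the ratio of the 185 kb loop fell to 4.41. The 185 kb and 190 kb loops were called on maps of different bin size, with anchors of 5 kb and 10 kb. Lens epithelium had 2 more loops from the same site, of 100 kb to the region of Nck1, Gm46139 and Slc35g2 (2.04, 1.73 to 2.39) and of 275 kb to a site inside Stag1 (2.12, 1.72 to 2.58). Both were weak, since 3.60% and 7.37% of epithelium loops, respectively, had a ratio as low or lower.

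In ES cells the start site of Stag1 was joined over 95 kb to the region of Nck1, Gm46139 and Slc35g2, with 36 contacts against 10.8 (3.34, 2.34 to 4.63). The other ES cell loop, of 375 kb, ended inside the gene away from the start site (1.85, 1.56 to 2.18), and 0.615% of ES cell loops had a ratio as low or lower. Neither ES cell loop led to Il20rb or Ppp2r3a, but the 95 kb loop was shared with the 100 kb loop of epithelium within 10 kb. The TADs also differed between ES cells and lens. In ES cells a TAD of 100 kb (chr9:100540001-100640000) ended 3.45 kb before the start site and held 11.7% of the gene. In epithelium and fiber cells a TAD of 710 kb and of 705 kb enclosed the whole gene, from 100450001 to 101160000 and to 101155000. Lens loops of 700 kb joined the edges of these TADs (36 contacts, 4.6, 3.22 to 6.37 in epithelium, and 121 contacts, 3.26, 2.70 to 3.89 in fiber cells). ES cells also had a loop around the gene, of 550 kb from chr9:100450001-100475000 to chr9:101000001-101025000 (153 contacts, 2.20, 1.86 to 2.58). Its lower anchor was that of the fiber loop, and its upper anchor lay inside the lens TADs. Both arms of the lens loops from the start site ended at anchors on or within 5 kb of the edges of the TAD that spanned the gene in lens.

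**Figure D4:**
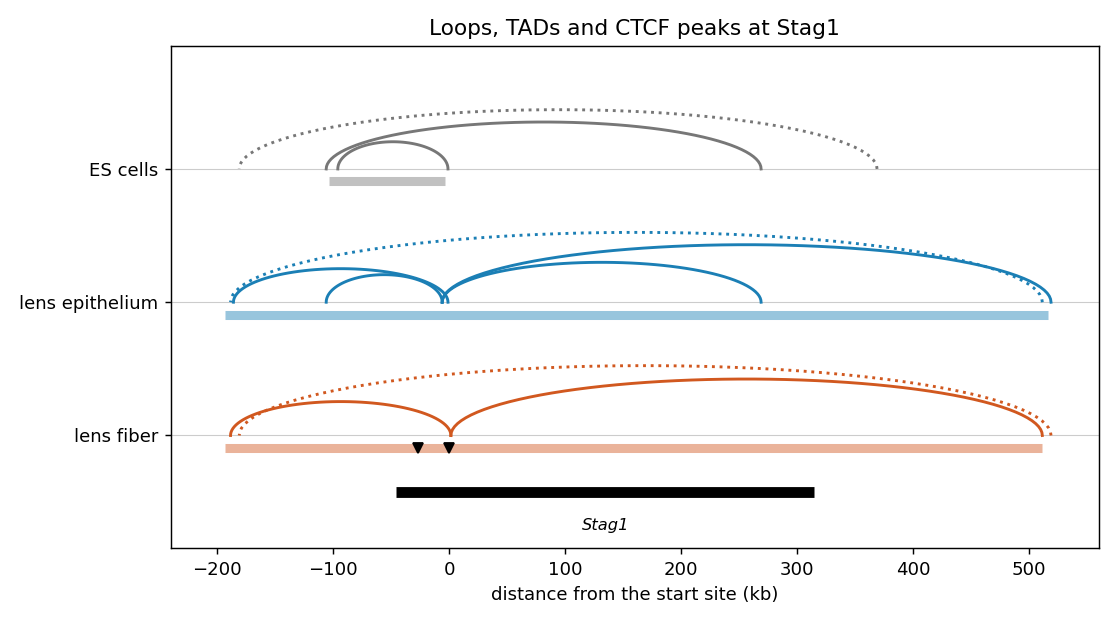
Loops (solid arcs), the smallest loop spanning the gene (dotted arcs), TADs (thick bars) and CTCF summits (triangles) at Stag1 by distance from its start site in kb, with 1 row per cell type, the gene as a black bar and arc height without unit. In both lens rows loops leave the start site towards each edge of a TAD of 705 to 710 kb, while the ES cell TAD of 100 kb ends at the start site; ES cells have no CTCF data.

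The fiber CTCF peak printed in part above, chr9:100643364-100643741, had its summit 65 bp downstream of the Stag1 start site. With a fold enrichment of 9.32 it exceeded 84.2% of the fiber list. It lay under an anchor of 1 ES cell loop, 4 epithelium loops and 2 lens fiber loops, and no epithelium peak lay in the widened gene. The closest epithelium summit was 22.4 kb outside the gene. A weaker fiber peak with a fold enrichment of 4.22 (chr9:100617017-100617220) lay 26.4 kb upstream of the start site and under no loop anchor.

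Nipbl (chr15:8289824-8465315) encodes the large subunit of the cohesin loader. It held a loop that all 3 lists had within 10 kb, which among the loops at members was otherwise the case for the Mau2 loop alone. In ES cells and epithelium the anchors were identical, chr15:8450001-8455000 and chr15:8585001-8590000. ES cells had 37 contacts against 9.08 (ratio 4.08, 2.87 to 5.62) and epithelium 18 against 4.22 (4.26, 2.53 to 6.74). The fiber loop, of 140 kb and with anchors of 10 kb, had 57 against 20.7 (2.75, 2.09 to 3.57). Its near anchor, chr15:8440001-8450000, lay beside the anchor of the other cell types without overlapping it, and it held part of the gene model LOC102634078. The second fiber loop, of 110 kb, started at chr15:8450001-8460000 (2.46, 1.86 to 3.18). Epithelium had a further loop of 225 kb from inside the gene (113 against 41.6, 2.71, 2.24 to 3.26), which was weak against the highest of the 4 HiCCUPS expectations (ratio 1.52). Of the 4 FDR values of the 135 kb epithelium loop, the highest was 0.0659.

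CTCF peaks of both lens lists lay in the Nipbl anchor common to ES cells and epithelium. No fiber peak lay in the near anchor of the 140 kb fiber loop, and the fiber peak was in that of the 110 kb loop instead. The epithelium peak, chr15:8451107-8451349, had a fold enrichment of 6.47, above the median of its list (5.78), and the fiber peak, chr15:8451062-8451249, had 5.24, below the median of its list (6.44). Nipbl was the single member with a shared peak that ranked higher in the epithelium list. The percentiles were 65.1 in epithelium and 24.5 in fiber cells. A further epithelium peak, chr15:8446465-8446656, had a fold enrichment of 4.89 and no counterpart in the fiber list. In ES cells a TAD of 140 kb ran from 8450001 to 8590000 and had both edges at the loop anchors, and a TAD of 170 kb ended inside the gene. No TAD touched Nipbl in lens, where the nearest was 495 kb (epithelium) and 485 kb (fiber) away.

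Mau2 (chr8:70014527-70042734) encodes the partner of NIPBL in the loader. It had 1 loop, in epithelium, of 80 kb to Gatad2a, with 52 contacts against 19 expected (2.73, 2.04 to 3.58). Its near anchor, chr8:70000001-70010000, reached the margin alone, 4.53 kb from the gene. Loops within 10 kb of this one were also called in ES cells and fiber cells, with nearest anchors 9.53 kb and 14.5 kb from Mau2, so that they missed the widened gene. The presence of this loop in epithelium alone therefore rests on the 5 kb margin. No TAD and no CTCF peak touched Mau2, and the closest summits were 95.4 kb (epithelium) and 45.3 kb (fiber) away.

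Wapl (chr14:34672379-34747983) encodes the release factor. In ES cells a loop of 50 kb held the start site in its anchor (100 contacts against 45 expected, 2.22, 1.81 to 2.70). A loop of 60 kb lay within and just beyond the gene (43 against 11.3, 3.79, 2.75 to 5.11, and 2.31 against the highest of the 4 expectations), and a loop of 400 kb ended in Glud1 (25 against 6.32, 3.95, 2.56 to 5.84). None of them was found in lens within 10 kb, and no lens CTCF peak lay in any of their anchors. A loop around the whole gene was present in each list, however. It measured 155 kb in ES cells (5.53, 4.0 to 7.45) and 150 kb in epithelium (4.20, 3.07 to 5.62) and fiber cells (4.83, 3.15 to 7.07). Wapl was the only protein-coding gene between its anchors. The ES cell loops of 50 kb and 60 kb thus lay inside a larger loop that was also called in lens.

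Pds5a (chr5:65605719-65698236, minus strand) had 1 loop, in epithelium. It joined the anchor with the start site, chr5:65690001-65700000, over 300 kb to Rpl9 and Lias at chr5:65390001-65400000. There were 35 contacts against 7.91 expected (4.43, 3.08 to 6.16), and the ratio was at or above that of 81.3% of the epithelium loops. A TAD of the same extent, 310 kb, was called in epithelium. The fiber list had a nearly equal TAD of 305 kb but no loop at its corner. In both lens cell types the edge of the TAD was 1.76 kb from the start site. In ES cells the TAD was 130 kb long, covered 91.1% of the gene and ended 8.24 kb inside it from the start site. The fiber CTCF peak, chr5:65696762-65697045, had its summit 1349 bp downstream of the start site and a fold enrichment of 7.08. It lay in the anchor of the epithelium loop, and the closest epithelium summit was 126 kb from the gene.

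Pds5b (chr5:150673713-150810669) had 1 loop, in fiber cells, of 690 kb from the anchor with its start site to Stard13. It had 25 contacts against 4.88 expected (5.12, 3.31 to 7.56), a ratio at or above that of 94.3% of the fiber loops. The anchor, chr5:150670001-150680000, also held part of the gene model Gm40353. No anchor came nearer than 244 kb in ES cells or 319 kb in epithelium, and no TAD touched the gene. The promoter peak printed above was called in both lens cell types with summits 3 bp apart, 186 bp (epithelium) and 183 bp (fiber) upstream of the start site. Its fold enrichment was 5.17 in epithelium, at percentile 31.1 of the list, and 12.8 in fiber cells, at percentile 97.7. No CTCF peak lay in the anchor at Stard13. With 1 peak list per lens cell type, a difference between libraries and a difference between cells cannot be told apart here.

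Peaks over promoter windows were counted over the 7 members with a window. A fiber peak overlapped the window of Stag1 and of Pds5b (2 of 7, against 5.08% of all genes with a window). An epithelium peak overlapped that of Pds5b (1 of 7, against 1.5%). These shares are over 26794 genes with a window, a set not limited to protein-coding genes as the other shares are. In Ctcf and Smc3 the nearest fiber peak lay just outside the window.

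**Figure D5:**
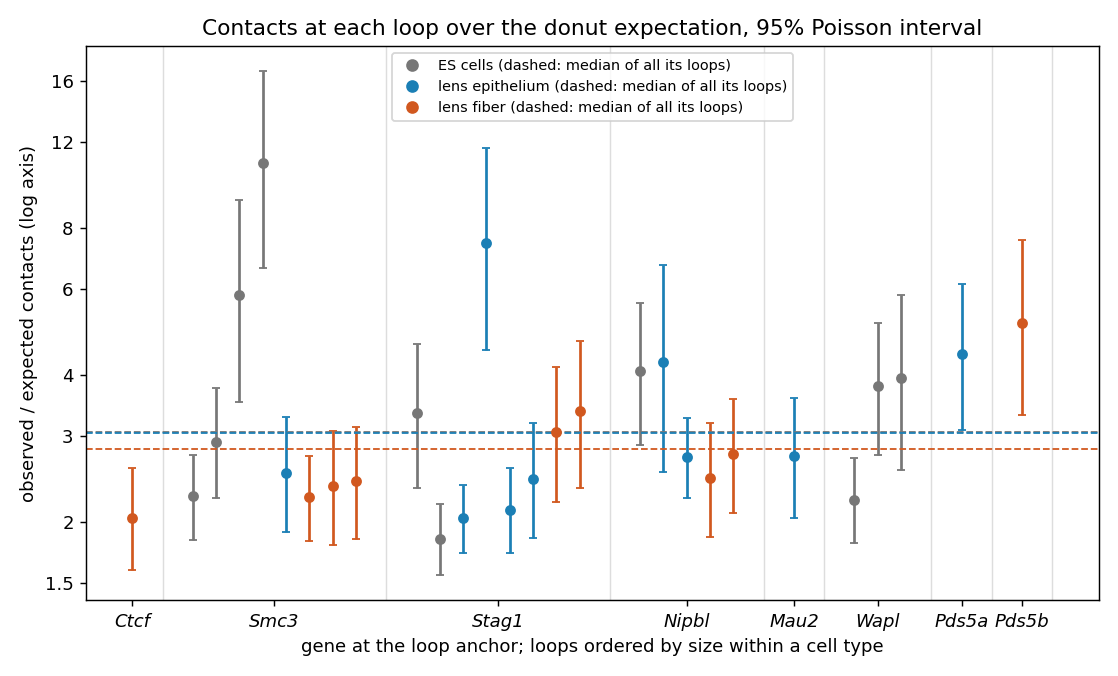
Observed over expected contacts (log axis) of each loop at a member, with the exact 95% Poisson interval of the observed count as error bar, in ES cells, epithelium and fiber cells, ordered by loop size within each cell type. Dashed lines are the medians over all loops of a list (3.06, 3.05 and 2.83), and the Smc3 loop of 7125 kb in ES cells is the highest at 10.9.

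The median strength of the loops at members was above that of all loops in ES cells and below it in both lens lists. The median ratio was 3.57 in ES cells (all loops 3.06), 2.71 in epithelium (3.05) and 2.46 in fiber cells (2.83). Median sizes were 192.5 kb, 225 kb and 275 kb, near the 220 kb, 250 kb and 270 kb of all loops. In 12 of 23 loops at the 7 members with a known start site, the member-side anchor held that site. Of these, Stag1 alone gave 1 in ES cells, 4 in epithelium and 2 in fiber cells, and the share over all loops was not counted. Of the 9 lens fiber loops at members, 3 were shared with epithelium (33.3%, Wilson 95% interval 12.1 to 64.6%), against 57.8% of all fiber loops. With ES cells 1 was shared (11.1%, 1.99 to 43.5%), against 38.1%. Both intervals take the 9 loops as independent, but these came from 5 members, and the 3 at Smc3 shared 1 anchor. The intervals are therefore too narrow, and no difference from all fiber loops was tested. These shares depended on the tolerance. Within 25 kb they were 55.6% with epithelium and 22.2% with ES cells, and with overlap of both anchors they were 22.2% and 0%. Of the 9 epithelium loops at members, 44.4% were shared with fiber cells (18.9 to 73.3%, all epithelium loops 55.5%) and 33.3% with ES cells (12.1 to 64.6%, all 37.9%).

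CTCF peaks at the anchors were counted with the fiber list, the longer of the pair. Of the fiber loops at members, 3 had a fiber peak in both anchors, 6 in 1 anchor and 0 in none, against 39.1%, 44.3% and 16.6% of all fiber loops. In epithelium 2 of the 9 loops at members had a fiber peak in both anchors, 6 in 1 anchor and 1 in none, against 38.0%, 43.5% and 18.5% of all epithelium loops. Counted with the epithelium peaks, 1 of these loops had a peak in both anchors, 3 in 1 anchor and 5 in none, against 15.7%, 44.7% and 39.5%. Of the 10 ES cell loops at members, 5 had no lens fiber peak in either anchor, against 23.8% of all ES cell loops, and 3 of these 5 were the Wapl loops.

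Genes that act with or resemble the members were taken from a list of 26, all of which were found in the annotation: the remaining cohesin subunits, acetyltransferases and other regulators, condensin and SMC5/6 subunits, and DNA-binding factors such as Ctcfl, Zfp143, Maz and Yy1. Loop anchors lay at 13 of 26 in ES cells, 9 of 26 in epithelium and 10 of 26 in fiber cells, beside the shares of all genes given above. CTCF peaks lay in 9 of 26 in epithelium and 14 of 26 in fiber cells, and 6 of 26 had one in the fiber list alone. Ctcfl, the paralog of Ctcf that is expressed in the germ line, had the most features of the list, with 3, 4 and 5 loops in ES cells, epithelium and fiber cells and 4 peaks in each lens list. Smc1a, the partner of Smc3 in the ring, had no loop, TAD or peak in any list. Stag2, which stands in for Stag1 in other cohesin complexes, had 2 loops in ES cells, none in epithelium and 1 in fiber cells, with 1 CTCF peak, in fiber cells.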

How the data were processed

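The authors aligned the Hi-C reads to mm10 with BWA, built Juicer contact maps at a mapping quality of at least 30, merged both replicates of each cell type, and called loops (juicer_tools 2.13.06, HiCCUPS) and TADs (Arrowhead). Observed contacts are deposited as raw counts, expected contacts as a signal that HiCCUPS estimated from the surroundings, and each FDR as a q-value. The authors called CTCF peaks with MACS2, and each deposited peak carries a score, a fold enrichment and its significance as −log10 p and −log10 q. The labels give 1 CTCF sample per lens cell type, whereas the methods of the study mention biological replicates, and whether each peak list pools these is not stated in the sources used here. Versions of BWA, Juicer and MACS2 are not given in the sources used here.

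Overlaps of at least 1 bp, sizes between anchor midpoints, loops shared within 10 kb, and 95% intervals (exact Poisson for contacts, Wilson for shares) came from Python 3.11.15 with pandas 2.3.3, numpy 2.4.6 and scipy 1.17.1. Figures were made in matplotlib 3.10.9. Intervals cover counting error only. The sequencing depth behind the lists was not analysed here. The counting was tested on 2000 simulated loops, and 7 of 7 checks gave the known answer. Genes named are the members, the list of 26 related genes, and protein-coding genes at loop anchors or with an end within 2 kb of a member's CTCF peak. Members, lists and alternatives were chosen with earlier results of these data known. Loops spanning a member, and members with a peak in the fiber list cut to equal length, were added after the values were seen. Alternatives covered the widening of the gene, the FDR, the tolerance for shared loops, TAD size, peak strength and the expectation used. Exons, introns and genome sequence outside promoter windows were not used here.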

Additional observations from a re-analysis of the deposited data

How the results depend on the processing

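Of 46 alternatives tried for 15 results, 39 stayed within 1.5 times the count or within the interval used for that result. For shared loops this interval was wide (12.1 to 64.6% with epithelium), so that staying inside it says little. For loop strength it was the Poisson interval of the single loop nearest the median over all member loops, and not an interval of that median. With the gene body not widened, or with the anchor midpoint required inside the widened body, lens epithelium had a loop at 3 members instead of 5, and Mau2 and Smc3 were the genes lost. Requiring both anchors to overlap left 0% of the member loops of lens fiber cells shared with ES cells (0 of 9, for which a limit of 3 counts gives a share of up to 33.3%). With TADs of at least 200 kb, 0 remained at the members in ES cells and 2 in lens epithelium. With the stronger 50% of each peak list, the epithelium kept 1 peak and the fiber cells 6. Results by cell type rest on 1 merged list each, and no replicate could be left out. Loops missing from a list may lie below the threshold of the caller, and the depth of the maps limits which loops were called. No paired analysis was possible because the authors merged the replicates before the lists were made.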
